A study of Mus musculus with 5 samples.

Results

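Sox10, Erbb3, Ngfr, Mbp, Pmp22, Mal, S100b and Cdh19 are 8 genes of Schwann cells and of myelin, read here in cells sorted from dystrophic mouse muscle. They were chosen by gene name, with every non-control probe of the array design that carries a member's name, which gave 11 probes and 20 spots. The whole design holds 36413 gene names, 55681 probes and 59305 non-control spots. Mbp had 3 probes, Pmp22 had 2, and each other member had 1, that of Ngfr being spotted 10 times.

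All mice were of strain C57BL/6 and of genotype DMD/MDX, the dystrophin-deficient mdx mouse, so no group is free of the disease. They received TSA, the usual abbreviation of the histone deacetylase inhibitor trichostatin A, at 0.6 mg/kg or its vehicle by intraperitoneal injection over 45 days. Sca1+ interstitial cells were sorted as CD34+, α7-integrin+ and Sca1+, and MuSC, the usual abbreviation of muscle stem cells, as CD34+, α7-integrin+ and Sca1-. There were 2 arrays of Sca1+ cells with vehicle, 2 of Sca1+ cells with TSA and 1 of MuSC with vehicle, each hybridised with total RNA in 1 colour. Nothing in the labels says that the replicates came from separate mice or sorts, so p-values here rest on a spread between arrays that could be purely technical. The single MuSC array was assumed to vary like the Sca1+ arrays. Each group is a sorted pool of cells, in which fewer cells of a type and less RNA per cell cannot be told apart.

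Schwann cells are the glia of peripheral nerve, which runs through muscle together with its vessels. Axonal neuregulin acts on them through the receptor pair ErbB2 and ErbB3, the transcription factor Sox10 holds their identity, and Sox10 with Egr2 switches on the genes of the myelin sheath. Ngfr, S100b and Cdh19 are used as markers of Schwann cells at different stages, while Mbp, Pmp22 and Mal encode proteins of the sheath. None of them is made by Schwann cells alone, since Pmp22, for example, is also made by fibroblasts and Mal by several epithelia.

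Levels are log2 of the processed signal minus the log2 of that array's 75th percentile, so a level of 0 is a signal at the 75th percentile and a step of 1 is a doubling. The 75th percentile of the processed signal lay between 164.7 and 452.1, from 58.5% to 66.9% of spots were well above background, and no spot was saturated. Replicate arrays correlated across probes at 0.985 with vehicle and 0.989 with TSA. The labels were checked on Ly6a, Itga7 and Cd34, the genes of the gates, and on Pax7, which is not a gate marker. Ly6a, which encodes Sca1, had levels of 6.46 and 6.59 with vehicle, 5.89 and 5.71 with TSA and 1.46 in MuSC, and Pax7, the satellite cell factor, −3.77 and −4.51, then −0.99 and −1.16, and 3.48. Ly6a and Pax7 follow the labels for MuSC, and Pax7 was 3.07 ± 0.30 (SE) log2 units higher with TSA within the Sca1+ gate (limma adjusted p = 0.0257). Pax7 was well above background on all arrays but vehicle replicate 2, so that difference is not exact. All groups were sorted as CD34+ and α7-integrin+, yet neither gene was level across them. Itga7, which encodes α7-integrin, had levels of 1.35 and 1.09 with vehicle, 4.53 and 4.59 with TSA and 7.02 in MuSC. It differed from vehicle by 3.34 ± 0.18 with TSA and 5.80 ± 0.21 in MuSC (limma adjusted p = 0.00727 and 0.002). Cd34 differed by −3.19 ± 0.20 in MuSC against vehicle (limma adjusted p = 0.00286).

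The stretch before the annotated start is shown for 3 members that were higher in MuSC than in vehicle Sca1+ cells, to set their letters beside their levels. RefSeq promoters (build GRCm38.p6) were matched for 4 of the 8 members, Mal, S100b, Ngfr and Pmp22, and Sox10, Erbb3, Cdh19 and Mbp were not matched. Each sequence is the 250 bases before the start, 5′ to 3′ on the gene's strand, with the E-box letters CANNTG in capitals. The positions are chr2:127656696-127656945 on the minus strand for Mal, chr10:76253586-76253835 on the plus strand for S100b and chr11:95587699-95587948 on the minus strand for Ngfr.
Mal: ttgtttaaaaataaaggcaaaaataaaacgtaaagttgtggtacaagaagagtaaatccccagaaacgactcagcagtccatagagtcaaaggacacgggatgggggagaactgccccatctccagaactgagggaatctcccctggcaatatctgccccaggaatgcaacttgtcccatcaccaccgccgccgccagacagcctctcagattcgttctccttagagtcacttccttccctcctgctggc
S100b: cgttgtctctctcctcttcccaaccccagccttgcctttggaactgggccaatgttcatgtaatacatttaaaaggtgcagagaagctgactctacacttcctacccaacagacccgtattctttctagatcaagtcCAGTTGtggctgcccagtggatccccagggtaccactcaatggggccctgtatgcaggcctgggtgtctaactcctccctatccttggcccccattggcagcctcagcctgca
Ngfr: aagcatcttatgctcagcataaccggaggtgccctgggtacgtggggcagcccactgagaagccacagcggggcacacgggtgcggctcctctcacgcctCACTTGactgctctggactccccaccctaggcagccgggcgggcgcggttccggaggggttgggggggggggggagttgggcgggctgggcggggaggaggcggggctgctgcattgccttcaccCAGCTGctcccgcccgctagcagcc
Mal held 0 copies of CANNTG, S100b 1 and Ngfr 2, and 66.2% of the 32851 promoters of the same length held at least 1. The letters ACAAAG, of the kind bound by Sox proteins, and GGGCGG, the GC box, were searched on both strands. ACAAAG was in none of the 3, beside 16.5% of all promoters, and GGGCGG was in Ngfr with 4 copies and in neither of the others, beside 32.7% of all promoters. These matches describe the letters of the window only.

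Sox10, the lineage transcription factor, stepped up across the 3 groups. Its 1 probe lies at chr15:78985518-78985577 on the minus strand (mm9, the build of the design) and starts at base 2478 of its transcript. Its last 30 bases are shown because they hold AATAAA, the letters of the polyadenylation signal, in capitals, which 10.1% of all probes of the array hold on their own strand.
Sox10 probe: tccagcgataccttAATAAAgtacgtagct
Sox10 had levels of −1.51 and −1.70 with vehicle (n = 2), 0.16 and 0.06 with TSA (n = 2), and 1.48 in MuSC. The groups did not overlap, and the gaps between them were many times the spread within a pair. Sox10 rose 3.28-fold with TSA (1.72 ± 0.17 log2 units; limma adjusted p = 0.0261), by 1.67 on the first slide and 1.76 on the second. It was higher in MuSC than in vehicle Sca1+ cells by 3.09 ± 0.21 (limma adjusted p = 0.00318) and than in TSA Sca1+ cells by 1.37 ± 0.21 (limma adjusted p = 0.0296). With normexp background correction the TSA difference was 1.05, still past the threshold, and it was past it in 7 of 8 settings that kept every array.

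The receptors did not share that order. Erbb3, the neuregulin receptor, was near background throughout, at −4.31 and −4.40 with vehicle, −4.06 and −5.12 with TSA and −3.04 in MuSC, and its vehicle replicate 2 was not well above background. The TSA and vehicle arrays overlapped, and the 2 TSA arrays lay further apart than the 2 group means. The TSA difference was −0.24 ± 0.39 (limma adjusted p = 0.734), with a 95% interval from −1.30 to 0.82. MuSC was the highest array for Erbb3, by 1.32 ± 0.48 over vehicle and 1.56 ± 0.48 over TSA, and neither passed (limma adjusted p = 0.143 and 0.133). The probe lies at chr10:128006424-128006483 on the minus strand (mm9).

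Ngfr, the p75 neurotrophin receptor, separated MuSC from both Sca1+ groups. Its probe, at chr11:95430211-95430270 on the minus strand (mm9), gave −1.40 and −1.68 with vehicle, −1.06 and −1.29 with TSA and 1.65 in MuSC. The SD over the 8 to 10 usable spots of an array was at most 0.142, so spot noise was smaller than the gap between arrays of a pair. The TSA arrays lay just above the vehicle arrays, by 0.36 ± 0.20, with a 95% interval from −0.17 to 0.89 (limma adjusted p = 0.345). Ngfr was 9.13-fold higher in MuSC than in vehicle Sca1+ cells (3.19 ± 0.24; limma adjusted p = 0.00403) and 7.09-fold higher than in TSA Sca1+ cells (2.83 ± 0.24; limma adjusted p = 0.00936).

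Mal, a membrane raft protein of compact myelin that sorts cargo to the sheath, had the widest span of the members. Its levels were −1.86 and −1.60 with vehicle, 2.49 and 2.94 with TSA, and 4.38 in MuSC. No array of one group came within 1 log2 unit of another group. Mal rose 21.8-fold with TSA (4.44 ± 0.23; limma adjusted p = 0.00727), by 4.34 on the first slide and 4.55 on the second. It was 69.1-fold higher in MuSC than in vehicle Sca1+ cells (6.11 ± 0.29; limma adjusted p = 0.00203) and 3.17-fold higher than in TSA Sca1+ cells (1.67 ± 0.29; limma adjusted p = 0.0388). The probe lies at chr2:127458976-127459035 on the minus strand (mm9) and starts at base 2704 of its transcript.

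Mbp, myelin basic protein, gave a different answer for each of its probes. By A_52_P329451, its probe of highest mean level, it had levels of −1.80 and −1.41 with vehicle, 0.51 and 0.16 with TSA, and 2.19 in MuSC, with no overlap between groups. By this probe it rose with TSA by 1.94 ± 0.23 (limma adjusted p = 0.043), by 2.31 on the first slide and 1.56 on the second. With the replicate number, which is also the slide, as a block, the limma adjusted p was 0.0503, and over all alternatives it ran from 3.42e-06 to 0.223. The same probe was higher in MuSC by 3.79 ± 0.29 over vehicle and by 1.86 ± 0.29 over TSA (limma adjusted p = 0.00406 and 0.0316).

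Pmp22, a tetraspan protein of compact peripheral myelin, was high in all groups. Its 2 probes lie on the plus strand of chromosome 11 (mm9), A_55_P2040170 at chr11:62972989-62973048 and A_55_P2040168 at chr11:62971862-62971921. Their last 30 bases are shown because the probes read different places of the transcript, bases 1741 and 614 at their starts, and only the first holds AATAAA, in capitals.
A_55_P2040170: gatgcatcaaAATAAAcatcagagtaactc
A_55_P2040168: atgtgatcctgcggaaacgcgaatgaggcg
By A_55_P2040170 the levels of Pmp22 were 5.11 and 5.37 with vehicle, 5.15 and 5.38 with TSA, and 5.90 in MuSC. The Sca1+ arrays were interleaved, and each slide's TSA array lay within 0.05 of its vehicle array. The TSA difference was 0.02 ± 0.19, with a 95% interval from −0.49 to 0.54 (limma adjusted p = 0.949). MuSC was above all Sca1+ arrays by 0.66 ± 0.23 over vehicle, which did not pass (limma adjusted p = 0.134).

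S100b, a calcium-binding protein abundant in glia, followed the order of Sox10 over a narrower range. It had levels of 0.83 and 0.75 with vehicle, 1.78 and 1.89 with TSA, and 2.52 in MuSC, by a probe at chr10:75723783-75723842 on the plus strand (mm9). The groups did not overlap and replicates were close, with SDs of 0.0567 and 0.0778 (n = 2 each). The TSA difference of 1.04 ± 0.16 did not pass (limma adjusted p = 0.0695), with values of 0.95 and 1.14 on the 2 slides. It passed with normexp background correction (1.01; limma adjusted p = 0.00104), and over all alternatives the adjusted p ran from 0.00104 to 0.358. S100b was 3.30-fold higher in MuSC than in vehicle Sca1+ cells (1.72 ± 0.19; limma adjusted p = 0.0095), and its excess over TSA of 0.68 ± 0.19 did not pass (limma adjusted p = 0.113).

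Cdh19, a cadherin of Schwann cell precursors, did not separate the groups. Its probe, at chr1:112785846-112785905 on the minus strand (mm9), gave −3.06 and −3.78 with vehicle, −3.02 and −3.19 with TSA and −3.41 in MuSC. The vehicle arrays spanned the other arrays but one, TSA replicate 1. The TSA difference was 0.32 ± 0.29, with a 95% interval from −0.47 to 1.11 (limma adjusted p = 0.543), and −0.40 with normexp background correction. MuSC differed from vehicle by 0.01 ± 0.36, with a 95% interval from −0.96 to 0.98.

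**Figure D1:**
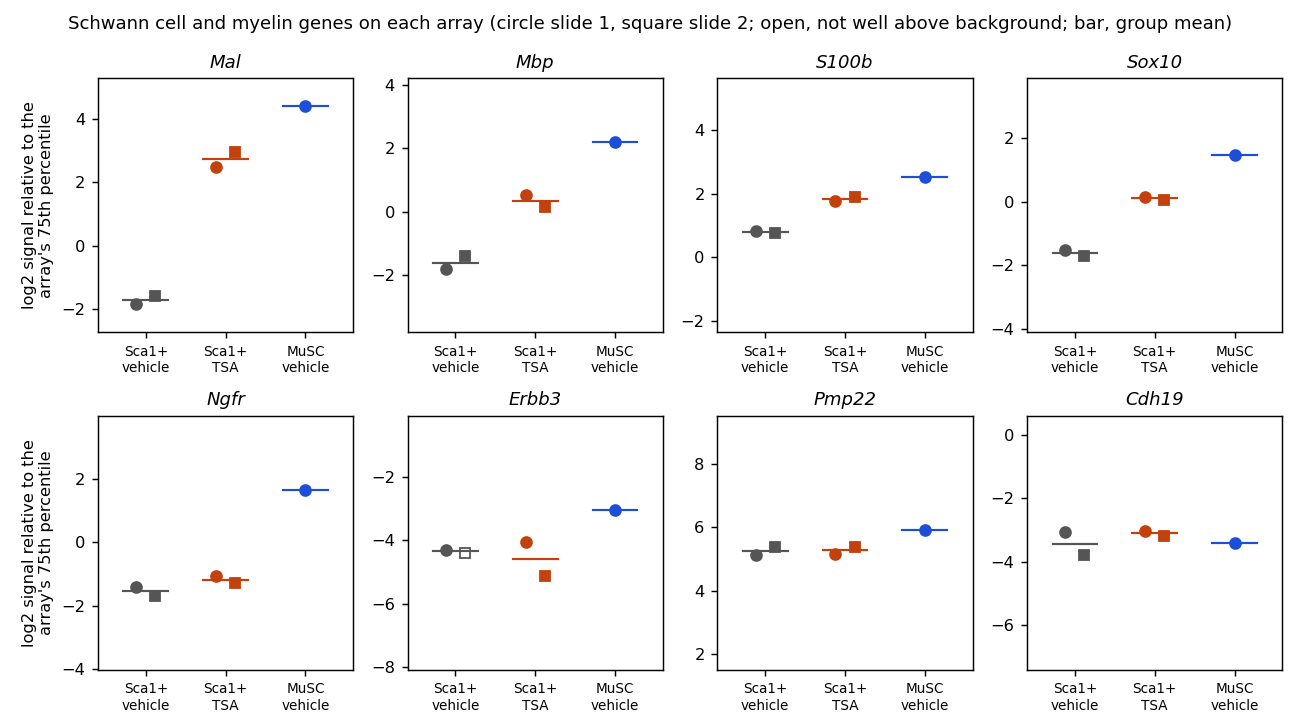
Level of each member by its probe of highest mean, in log2 relative to the array's 75th percentile, on each of the 5 arrays, with group means as bars and panels of equal height in log2 units. Mal climbs from −1.86 and −1.60 with vehicle to 4.38 in MuSC, Ngfr stays low in both Sca1+ groups and reaches 1.65 in MuSC, and Cdh19 stays between −3.78 and −3.02. Open points are not well above background.

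Counted by the probe of highest mean, 3 of the 8 members rose with TSA (Mal, Mbp and Sox10), beside 2.14% of all 36027 probes tested, and 0 fell, beside 0.128% of all probes (limma). At an unadjusted p under 0.05 the counts were 4 and 0. With 1 probe chosen this way for each gene name, 708 of 26088 rose and 70 fell. The mean is over all 5 arrays, so for Mbp it chose the probe high with TSA and in MuSC. With vehicle A_52_P604195 was the higher Mbp probe (mean −0.89 against −1.60). By that probe Mbp did not pass with TSA (0.39 ± 0.20; limma adjusted p = 0.324). The median difference over the 8 members was 0.70 log2 units, beside −0.13 over all probes tested, and in 5 of 8 the groups did not overlap, near the 57.9% of all probes tested in which they did not. Without vehicle replicate 1 only Mal of the 8 members passed, and without vehicle replicate 2, TSA replicate 1 or TSA replicate 2 none did, with 4 higher at an unadjusted p under 0.05 in each of the 3. Without TSA replicate 1 or TSA replicate 2, 0 of all probes passed in limma, with 6353 and 3927 at an unadjusted p under 0.05. With normexp background correction 4 of 8 members were higher and 1, Erbb3, lower (−0.61; limma adjusted p = 0.0329, and 0.0329 to 0.862 over all alternatives), while over all probes 1568 were higher and 10409 lower, against 770 and 46, and the median over all probes was −0.32.

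In MuSC against vehicle Sca1+ cells, 5 of the 8 members were higher by the same probes (Mal, Mbp, Sox10, Ngfr and S100b), beside 9.37% of all 36022 probes tested, and 0 lower, beside 10.2% (limma), with 7 and 0 at an unadjusted p under 0.05. By A_52_P604195 Mbp did not pass here (−0.09 ± 0.24; limma adjusted p = 0.829), nor against TSA Sca1+ cells (−0.48 ± 0.24; limma adjusted p = 0.29). The median difference over the members was 2.40, beside −0.03 over all probes, and in 7 of 8 the MuSC array lay outside the range of the vehicle arrays, as it did for 82.6% of all probes. The count of 5 was the same with each Sca1+ array left out in turn. In MuSC against TSA Sca1+ cells, 4 members were higher (Mal, Mbp, Sox10 and Ngfr), beside 4.09% of all probes, and 0 lower, beside 6.67% (limma), with 7 and 0 at an unadjusted p under 0.05. The median was 1.46, beside 0.14 over all probes, and in 8 of 8 the MuSC array lay outside the range of the TSA arrays, as it did for 81.6% of all probes. Without either vehicle array 1 of these 4 calls, Ngfr, was left, and without either TSA array 0 (limma), with 5 at an unadjusted p under 0.05 in each case. The 3 comparisons share arrays, so their values are given side by side. On the first slide, which holds the MuSC array and 1 array of each Sca1+ group, the excess of MuSC over vehicle was 6.24 for Mal, 3.99 for Mbp, 2.99 for Sox10, 3.05 for Ngfr and 1.68 for S100b. Over TSA it was 1.89, 1.68, 1.32, 2.71 and 0.74. The TSA mean lay between those of vehicle and MuSC for Mal, Mbp, S100b, Sox10, Ngfr and Pmp22 by their probes of highest mean. For Ngfr and Pmp22 the TSA and vehicle levels did not differ beyond their intervals given above.

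**Figure D2:**
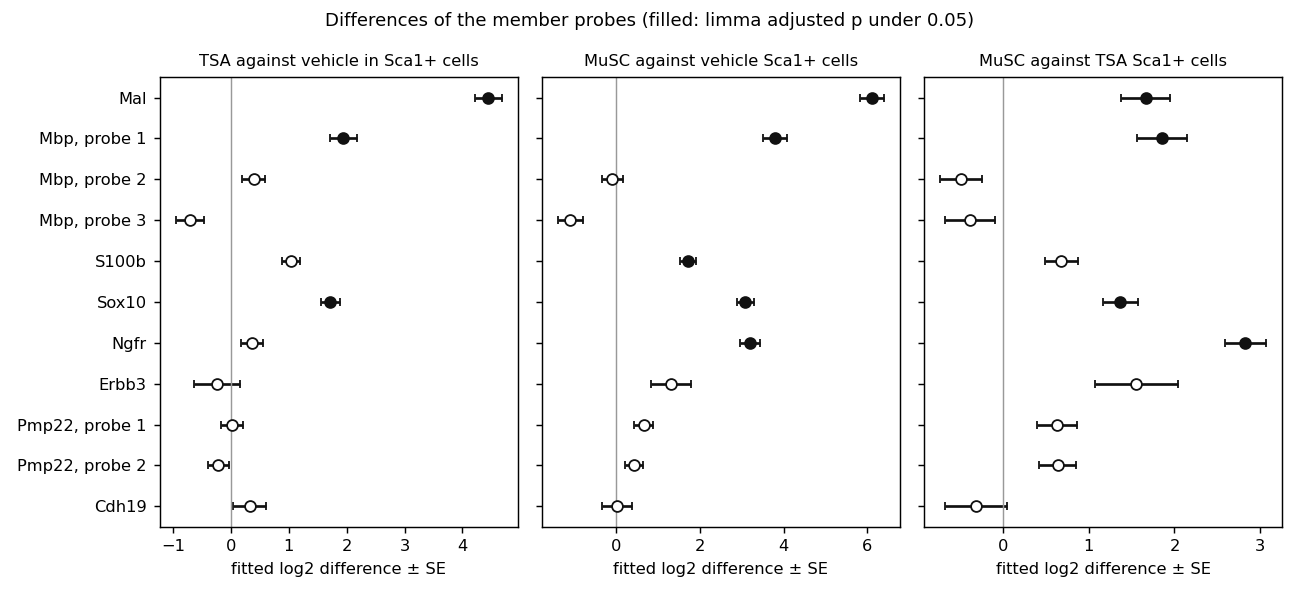
Fitted log2 differences with standard errors for the 11 member probes in the 3 comparisons, filled where the limma adjusted p is under 0.05, with the probes of Mbp and Pmp22 numbered by descending mean level. Mal, Sox10 and Mbp probe 1 are filled in all 3 panels, Ngfr is filled where MuSC enters, and Erbb3, Pmp22 and Cdh19 are open throughout. Mbp probe 3 was not well above background in MuSC, and its differences there are drawn as fitted, not as bounds.

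The probes of Mbp disagreed in sign in every comparison. By A_52_P604195 the levels of Mbp were −0.70 and −1.08 with vehicle, −0.50 and −0.50 with TSA, and −0.98 in MuSC, which lay inside the vehicle range. Its differences were 0.39 ± 0.20 with TSA and −0.09 ± 0.24 in MuSC against vehicle (limma adjusted p = 0.324 and 0.829). By A_55_P1992160 the levels were −3.52 and −4.08 with vehicle, −4.49 and −4.54 with TSA, and −4.89 in MuSC, the reverse order of the first probe, and it was not well above background on TSA replicate 1 or in MuSC. Its TSA difference was −0.71 ± 0.24 (limma adjusted p = 0.214). In MuSC against vehicle its fitted difference was −1.09 ± 0.30 and did not pass (limma adjusted p = 0.0768). That difference ran from −1.24 to −0.28 in the settings that kept every array. The limma adjusted p was 0.0483 with the replicate block, and 0.0483 to 0.61 over all alternatives. With the MuSC signal set to the lowest well above background, the drop was 1.87-fold, without allowance for the spread between arrays.

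The 3 probes of Mbp, on chromosome 18, have different but overlapping lists of transcripts in the design's annotation. It gives 4 entries for every member probe, so the lists may not be complete. A_52_P329451 lists 4 RefSeq transcripts and starts at base 916 of its first. Its 60 bases span 2305 bases of the mm9 genome, so it crosses an intron. A_52_P604195 lists 1 transcript, which is not among those 4, and starts at its base 4653. A_55_P1992160 lists 2, of which 1 is among those 4 and 1 is that of A_52_P604195, and starts at base 375.

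For Pmp22 both probes gave small differences. By A_55_P2040168 its levels were 3.05 and 3.34 with vehicle, 2.999 and 2.95 with TSA, and 3.62 in MuSC, with the TSA arrays just below the vehicle arrays. The TSA difference was −0.22 ± 0.18, beside 0.02 by the other probe, and neither passed (limma adjusted p = 0.5 and 0.949). In MuSC both lay above vehicle, by 0.42 ± 0.22 and 0.66 ± 0.23, without passing. Of the 2 genes with several probes, none had the same sign in all its probes for TSA against vehicle, and Pmp22 had for both other comparisons. With only probes well above background on all arrays, the 2 Mbp probes left shared their sign with TSA.

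**Figure D3:**
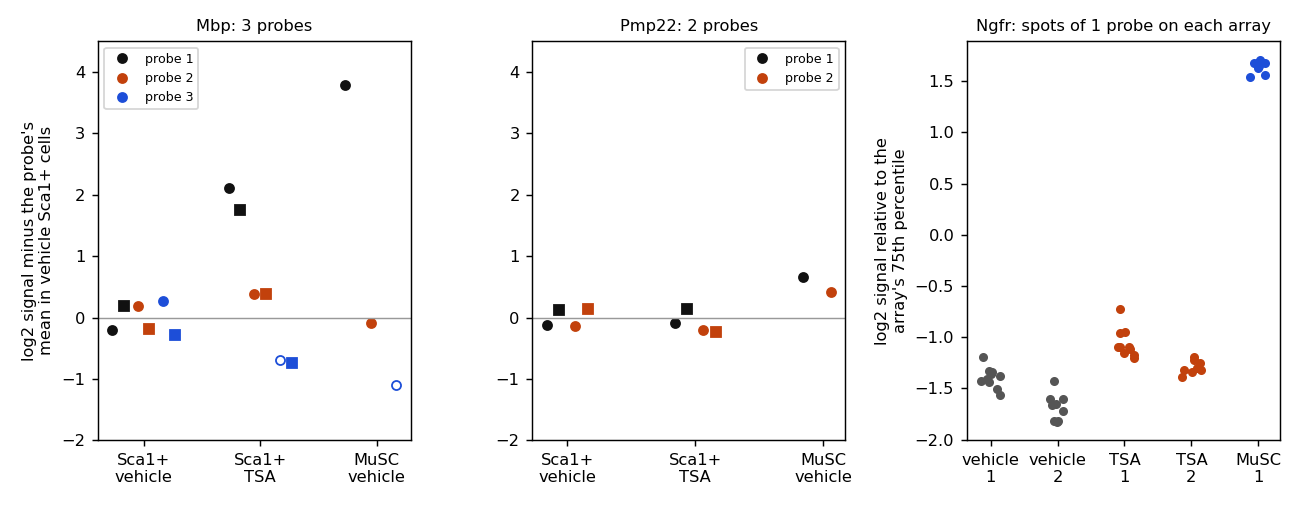
Left and centre, log2 signal of the 3 Mbp and 2 Pmp22 probes minus each probe's mean in vehicle Sca1+ cells, 1 point per array. Right, each usable Ngfr spot on each array. Mbp probe 1 reaches 3.79 above vehicle in MuSC while probe 3, open where it is not well above background, lies below vehicle, and the Ngfr spots of MuSC, from 1.55 to 1.71, stand apart from all others.

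The genes nearest to Mal and Sox10 in pattern were found among 15179 genes by the root mean square difference of profiles centred over the 5 arrays. For Mal they were Gjb2, a gap junction connexin, at 0.0671, Susd5 at 0.129 and Scn3a, a voltage-gated sodium channel, at 0.130. Gjb2 and Scn3a missed the background criterion with vehicle and met it on 3 of 5 arrays, so their likeness and rank are not exact, whereas Susd5 met it on all 5. Susd5 had levels of −2.48 and −2.30 with vehicle, 1.99 and 2.08 with TSA, and 3.83 in MuSC. For Sox10 they were Hspb7, a small heat shock protein, at 0.0784, the nuclear RNA Malat1 at 0.0795 and Hpdl at 0.0834. Hspb7 had levels of −2.95 and −3.20, −1.29 and −1.21, and 0.01. A likeness over 5 arrays of 3 groups describes these arrays only.

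Of 16 other genes of compact myelin and the myelin sheath, 9 rose with TSA, with 14 of 16 differences above 0 and a median of 2.72, beside −0.13 over all probes. Counts for this and the following lists stand beside 2.14% of all probes tested higher and 0.128% lower with TSA. In MuSC against vehicle these shares were 9.37% and 10.2%. Among the largest differences were those of Ncmap (4.27 ± 0.18), which encodes a myelin-associated protein, Fa2h (3.92 ± 0.23), which hydroxylates the fatty acids of myelin lipids, and Ugt8a, which makes galactosylceramide. Fa2h was well above background on all arrays but vehicle replicate 2, so its differences from vehicle are not exact. Ugt8a was at least 5.51-fold higher with TSA and did not pass (limma adjusted p = 0.0557). Ncmap had levels of −0.45 and −0.65 with vehicle, 3.82 and 3.61 with TSA, and 5.68 in MuSC, with no overlap between groups. In MuSC against vehicle 14 of the 16 were higher and 1 lower, with a median of 4.95. Ncmap (6.22 ± 0.22), Fa2h (5.50 ± 0.28) and Gldn, which encodes a protein of the node of Ranvier (5.34 ± 0.42), were among the highest. Mpzl1, named after its values were seen, was the 1 lower (−1.11 ± 0.21), a call lost with any 1 of the 4 Sca1+ arrays left out. Without vehicle replicate 2 the count with TSA was 1 of 16, and without TSA replicate 1 or TSA replicate 2 it was 0 in limma, with 14 at an unadjusted p under 0.05 in each.

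Receptors and ligands had calls in both directions in MuSC against vehicle. Of 13 tested, 3 rose with TSA and 0 fell (limma, with 4 and 2 at an unadjusted p under 0.05). Adgrg6, an adhesion receptor needed for peripheral myelination, rose by 3.67 ± 0.45, Dhh, the hedgehog ligand of Schwann cells, by 3.47 ± 0.21, and Gdnf, a neurotrophic ligand, at least 3.21-fold. Adgrg6 was well above background on all arrays but vehicle replicate 1, so its differences from vehicle are not exact. In MuSC against vehicle 5 were higher and 2 lower, beside 9.37% and 10.2% of all probes tested. Adgrg6 was higher by 5.17 ± 0.55, Dhh by 4.44 ± 0.25 and Gdnf at least 14.7-fold, while Lgi4, a secreted ligand of Schwann cells, was lower (−2.53 ± 0.20), as was Ret, the signalling receptor of Gdnf (−1.61 ± 0.19). Erbb2, the partner of Erbb3, differed by −0.20 ± 0.20 with TSA and −0.24 ± 0.24 in MuSC and passed in neither. The median over the 13 was −0.03 with TSA and 0.49 in MuSC. Without vehicle replicate 2, TSA replicate 1 or TSA replicate 2, 0 of the 13 passed as higher with TSA, with 4, 4 and 5 at an unadjusted p under 0.05.

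Of 8 other transcription factors of the lineage, 1 rose with TSA and 0 fell (limma, with 3 and 1 at an unadjusted p under 0.05). It was Foxd3, a neural crest factor, which was not well above background with vehicle and was at least 1.48-fold higher. In MuSC against vehicle 4 were higher, Foxd3 at least 7.17-fold, Pou3f1 by 2.25 ± 0.32, Egr2, the activator of myelin genes, by 1.84 ± 0.20 and Nab1, its cofactor, by 1.46 ± 0.19. Egr2 had levels of 1.28 and 1.17 with vehicle, 1.69 and 1.84 with TSA, and 3.06 in MuSC, and its TSA difference of 0.54 ± 0.16 did not pass (limma adjusted p = 0.189). Without any 1 of the 4 Sca1+ arrays, 0 passed as higher with TSA, with 2 or 3 at an unadjusted p under 0.05. Sox2 missed the background criterion on all 5 arrays.

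Genes listed for non-myelinating, immature and repair Schwann cells had calls in both directions in MuSC against vehicle. With TSA 3 of 14 rose and 0 fell (limma, with 7 and 2 at an unadjusted p under 0.05), with a median of 0.42. Kcna1, a voltage-gated potassium channel, rose by 4.39 ± 0.24 and Plekhb1, a pleckstrin homology domain protein, by 3.13 ± 0.19, while Fabp7, a fatty acid binding protein of immature glia, was at least 3.16-fold higher. In MuSC against vehicle 7 were higher and 3 lower, beside 9.37% and 10.2% of all probes tested. Kcna1 led at 6.54 ± 0.30, then Plekhb1 at 4.76 ± 0.23 and Ptprz1, a receptor phosphatase, at 4.65 ± 0.34, whereas Scn7a, a sodium channel of non-myelinating Schwann cells, was lower (−3.58 ± 0.31), as were Gap43 (−2.48 ± 0.40) and Matn2 (−1.49 ± 0.20). Without TSA replicate 1 or TSA replicate 2, 1 of these 3 lower calls was left. Gfap, the glial filament, was near background on every array, from −5.00 to −4.51. Without vehicle replicate 2, 1 of the 14 passed as higher with TSA, and without either TSA array 0 did, with 6 and 5 at an unadjusted p under 0.05.

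Genes of neighbouring cell types in nerve and of other glia were read the same way. Of 6 perineurial genes, 3 rose with TSA, Cldn1, a tight junction claudin, at least 3.95-fold, Krt19 by 3.53 ± 0.16 and Itgb4 by 3.22 ± 0.18, and 5 were higher in MuSC than with vehicle, 3 without vehicle replicate 2. Without vehicle replicate 2, TSA replicate 1 or TSA replicate 2, 0 of the 6 passed with TSA, with 4, 5 and 4 at an unadjusted p under 0.05. Krt19 was well above background on all arrays but vehicle replicate 2, so its difference is not exact. Of 5 oligodendrocyte genes tested, the 1 that rose with TSA was Mbp itself, and Mbp and Cldn11 were higher in MuSC than with vehicle. Cldn11 was not well above background with vehicle and was at least 1.88-fold higher in MuSC (limma adjusted p = 0.0285). Its call was lost with normexp background correction, with no filter on dim probes and with only the groups compared. The call was also lost with each Sca1+ array left out in turn. Olig1 and Opalin missed the background criterion on all 5 arrays. Of 5 neuronal genes tested, 0 passed with TSA in limma, with 2 higher and 1 lower at an unadjusted p under 0.05. In MuSC against vehicle Prph, a peripheral neuron filament, was higher (2.80 ± 0.30), and Gap43 and Snap25 (−1.57 ± 0.22) were lower. With TSA replicate 1 or TSA replicate 2 left out both lower calls were lost, and without vehicle replicate 2 1 of them was. The neurofilament genes Nefl and Nefm missed the background criterion on all 5 arrays.

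**Figure D4:**
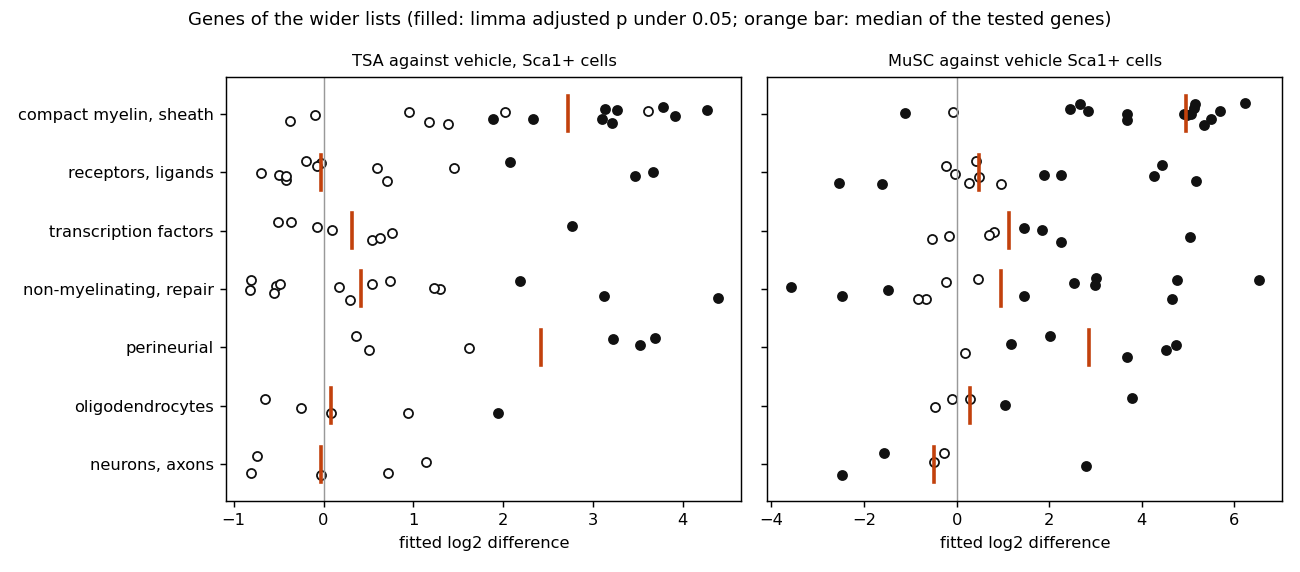
Fitted log2 differences of the tested genes of 7 lists of Schwann cells and nerve, TSA against vehicle on the left and MuSC against vehicle Sca1+ cells on the right, 1 point per gene. The median of the list of compact myelin and the myelin sheath is 2.72 and 4.95, while the receptors and ligands spread on both sides of 0.

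Markers of several other cell types moved with the same groups. Of all probes tested, 2.14% rose with TSA, and 9.37% were higher and 10.2% lower in MuSC against vehicle. Levels were summed over each list as linear signal relative to the array's 75th percentile, so the genes of highest level weigh most. Smooth muscle and pericyte genes rose with TSA in 8 of 9, and their sum was 39.0 and 42.5 with vehicle, 603 and 550 with TSA, and 1633 in MuSC. Satellite cell genes rose in 5 of 10, with sums of 17.9 and 16.1, 42.1 and 42.3, and 241, and genes of muscle fibres in 7 of 8, with sums of 0.935 and 0.696, 10.04 and 11.4, and 87.8. In the satellite list Itga7, a gene of the gate, was the highest with TSA (4.53 and 4.59) and in MuSC (7.02), so those sums lean on it. The median difference over that list with TSA was 2.56, with 9 of 10 above 0. The genes of compact myelin and the myelin sheath, summed the same way, gave 19.1 and 20.4, 58.2 and 57.0, and 172. Mast cell genes (4 of 4, with 0 well above background in MuSC) and red cell genes (3 of 3) rose with TSA but were not higher in MuSC. Fibroadipogenic progenitor genes passed in 0 of 8 with TSA (limma, with 7 lower at an unadjusted p under 0.05), and 8 of 8 were lower in MuSC, with sums of 2731 and 3893, 1637 and 1700, and 231. That list holds Ly6a, which encodes Sca1, so its lower level in MuSC (−5.07 ± 0.21 against vehicle) was set by the sort. It also holds Cd34, a gene of the gate that all groups shared. Endothelial genes were higher with TSA in 1 of 7 (Vwf, 2.96 ± 0.16) and lower in MuSC against vehicle in 4 of 7 (2 without vehicle replicate 1 or either TSA array), with sums of 63.0 and 101, 92.9 and 95.7, and 53.5. Macrophage genes passed in 0 of 5 with TSA (limma, with 4 higher at an unadjusted p under 0.05) and in 1 of 5, Mrc1, as higher in MuSC, a call lost with any 1 of the 4 Sca1+ arrays left out, with sums of 17.6 and 30.2, 15.8 and 16.1, and 14.9. Without vehicle replicate 2 the counts higher with TSA were 3 of 9 for smooth muscle, 2 of 10 for satellite cells, 1 of 8 for muscle fibres, and 0 for red cells and endothelial cells (limma, with 3 and 4 at an unadjusted p under 0.05). Without TSA replicate 1 or TSA replicate 2 these 5 lists and mast cells had 0 called higher with TSA (limma). At an unadjusted p under 0.05 there were then 7 to 9 higher in each of the smooth muscle, satellite and fibre lists, 4 mast cell genes, 3 red cell genes, and 4 and 5 endothelial genes. The part of these cell types in the levels of the members was not tested.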

How the data were processed

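Total RNA of 5 sorted cell samples was read on 1-colour Agilent arrays. Agilent Feature Extraction 10.7.3.1 produced the authors' spot intensities, per the file headers, with a background-subtracted processed signal and probes placed on mm9. The deposited value table is on a log2 scale, with a median of 4.67 in every column, and ranked the probes as the processed intensities do. How it was made is not given in the sources used here.

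Levels are log2 of the processed intensity minus each array's 75th percentile over non-control spots. Spots marked as outliers (0.196% to 0.334% an array) were dropped and the spots of a probe averaged. A probe was tested if, in 1 group or more, all arrays read it well above background, which kept 36027 of 55681 and all 11 member probes. Fits used limma 3.58.1 in R 4.3.3 (lmFit, eBayes, 5 arrays in 3 groups, two-sided, Benjamini-Hochberg over all probes, threshold 0.05) and were tested on simulated data. A group not above background on any of its arrays gives an "at least" fold against the lowest signal well above background. Such a fold allows for background only and not for the spread between arrays. Files of the second slide hold no gene names, which were taken by spot number from the first slide, and no mean signal, so normexp (offset 50) used the median signal, not the mean as planned. The text names every member, the 2 to 4 genes of each list with the largest differences, and the 3 genes nearest to Mal and to Sox10. Members and lists were chosen with earlier results of these data known. Precision is limited by the number of arrays. Alternatives were background correction, normalization, the deposited table, filters, block, samples in the fit, gene level and each array left out. Exon and UTR annotation of the probes was not used here. Values of some single genes of the wider lists are not reported here. Figures were drawn with matplotlib 3.10.9.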

Additional observations from a re-analysis of the deposited data

How the results depend on the processing

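Over the 33 single-probe results of the members, 381 alternatives gave 343 on the same side of the threshold, 34 that lost it, 4 that gained it and 0 called values of opposite sign. For TSA against vehicle, the 3 members higher became 1 with no filter on dim probes and 0 to 1 with an array left out, the 0 lower became 1 with normexp, and all probes called went from 816 to 11977 with normexp, 220 with no filter and 0 to 313 with an array left out. For MuSC against vehicle the 5 members higher were 5 in every setting run, and all probes called went from 7059 to 3193 with no filter, 3975 with only the groups compared and 3894 to 4814 with an array left out. For MuSC against TSA the 4 members higher became 1 with no filter, 1 with only the groups compared and 0 to 1 with an array left out, and all probes called went from 3875 to 963, 2495 and 0 to 2495. Genes whose probes share a sign with TSA went from 0 to 1 with probes well above background on all arrays. Mal passed with TSA in 8 of 8 settings that kept every array (limma adjusted p 2.37e-21 to 0.0336) and in 1 of the 4 that left one out (up to 0.101). The causes were not tested. With normexp, limma leaned more on the spread common to all probes, with prior degrees of freedom of 69.4, beside 2.30 in the main fit. Its small p-values are therefore not comparable in size with those of the main fit. Same-numbered arrays share a slide and their deviations from the group means correlated at 0.336, but 2 pairs do not settle a pairing. With the replicate block, Mbp with TSA lost its call by its first probe (1.94; limma adjusted p = 0.0503), Mbp by A_55_P1992160 gained one in MuSC against vehicle (limma adjusted p = 0.0483; not well above background in MuSC), no other member call changed, and 942 probes passed with TSA in place of 816. Signal limits Erbb3 and the third Mbp probe, which were near background.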
